A study of Mus musculus with 30 samples.

Results

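The 10 genes described here encode ubiquitin ligases and ligase adaptors that are best known from muscle wasting and muscle maintenance, together with FoxO transcription factors that control some of them. They were chosen by name, with earlier results of these data already known: Fbxo32, Fbxo30, Fbxo40, Trim63, Trim55, Trim54, Asb2, Klhl40, Foxo1 and Foxo3, 10 of the 30205 genes to which transcripts could be summed. RNA-seq was carried out on mouse muscle cells in 10 groups of 3 libraries, 30 libraries in all. Primary myoblasts came from hindlimb muscle of C57/Bl6J mice (3 animals, 8 weeks of age) and were sampled at day 0, with plastic as the labelled substrate, and at days 4 and 7 on patterned gelatin. C2C12 cells, an established mouse myoblast line, were sampled at days 4 and 7 on patterned gelatin hydrogel, unpatterned gelatin hydrogel and plastic, and at day 0 on plastic. No gene was deleted and no drug was given in any group. Patterned gelatin carries parallel grooves about as wide as a cell, and unpatterned gelatin is the same gel without them. Day 0 stands for myoblasts that cover the dish and are still in growth serum, and the myotubes, the multinucleated cells that form afterwards, were enriched by a brief trypsin treatment before they were collected. C2C12 is a single line, and its day 0 samples and the primary day 0 samples are each shared by every comparison with day 0 in that cell type, so those comparisons are not independent. The methods describe ECM-coated dishes and then patterned gelatin for primary cells, so the substrate of primary day 0 is taken from its label. By that label, substrate and day change together between primary day 0 and the later primary groups. They also change together between C2C12 day 0 and the C2C12 groups on gelatin.

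Ubiquitin ligases attach ubiquitin to proteins and so mark most of them for the proteasome. F-box proteins such as Fbxo32 (atrogin-1, or MAFbx) choose the substrates of Cullin 1 ligases, Asb proteins those of Cullin 5 ligases and Klhl proteins those of Cullin 3 ligases, whereas the MuRF proteins are single-chain RING ligases found at the sarcomere. In wasting muscle Foxo1 and Foxo3 enter the nucleus when Akt signalling falls and induce Fbxo32 and Trim63. Other members, such as Klhl40, are instead known for keeping sarcomere proteins in place.

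Library totals ran between 13.1 and 59.4 M estimated counts, with a median of 27.3 M. The genes lie on GRCm38 at chr15:58175879-58214932 (Fbxo32, ENSMUSG00000022358), chr10:11281330-11298052 (Fbxo30, ENSMUSG00000047648), chr16:36963460-36990467 (Fbxo40, ENSMUSG00000047746), chr4:134315120-134329629 (Trim63, ENSMUSG00000028834), chr3:19644474-19692421 (Trim55, ENSMUSG00000060913), chr5:31116712-31137630 (Trim54, ENSMUSG00000062077), chr12:103321142-103356001 (Asb2, ENSMUSG00000021200), chr9:121777607-121783818 (Klhl40, ENSMUSG00000074001), chr3:52268336-52353221 (Foxo1, ENSMUSG00000044167) and chr10:42181841-42276755 (Foxo3, ENSMUSG00000048756). All 10 had counts above 0 in all 30 libraries and passed the filter on low counts. The labelled cell type was checked on marker genes, whose summed level is given in TPM, transcripts per 1 M. The 6 myotube markers Myog, Ckm, Acta1, Myh3, Des and Mymk summed to between 9046 and 14103 TPM in primary cells at day 4, against 1571 to 2392 TPM at primary day 0, and to between 9884 and 12574 TPM in C2C12 cells at day 4, against 1055 to 1397 TPM at C2C12 day 0. The 4 fibroblast markers Pdgfra, Col1a1, Dcn and Lum summed to between 0.935 and 3.62 TPM in primary cells and between 39.2 and 188 TPM in C2C12 cells, with Lum at or near 0 in both. Defining markers of endothelial cells (Kdr), macrophages (Adgre1), Schwann cells (Sox10) and adipocytes (Plin1) were under 0.1 TPM in every library. Replicate 3 of the primary cells stood apart at days 4 and 7, with mitochondrial shares of 6.87% and 6.95% of counts, against 4.66% to 4.86% in replicates 1 and 2. Day 7 patterned C2C12 libraries also stood apart, with mitochondrial shares of 1.91%, 1.77% and 0.894% and totals of 30.03, 16.8 and 13.1 M, where day 4 patterned libraries had 2.70% to 4.21% and day 7 plastic libraries 2.70% to 3.99%. Replicate 3 was the lowest of them in both, and the part of these values in the day 7 patterned results was not tested. In these bulk samples, fewer cells of a type and less RNA per cell cannot be told apart.

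The promoters of the members were read from RefSeq (GRCm38.p6), which held 10 promoters for 8 members. Fbxo32 and Trim55 have no entry. In the 250 bases before each start site, 4 motifs were searched on both strands: CAGCTG, one form of the CANNTG E-box at which MyoD and myogenin bind, the FoxO letters GTAAACA, the MEF2 motif and the CArG box. The E-box CANNTG occurred in 66.23% of 32841 promoters of this length, CAGCTG in 13%, GTAAACA in 3.17%, the MEF2 motif in 2.92% and the CArG box in 1.47%. The 5 promoters below are printed because they are those of members that rose most after serum withdrawal, each written 5′ to 3′ on the gene's own strand. Capitals mark a match to one of the 4 motifs.
Trim63, chr4:134314870-134315119, plus strand: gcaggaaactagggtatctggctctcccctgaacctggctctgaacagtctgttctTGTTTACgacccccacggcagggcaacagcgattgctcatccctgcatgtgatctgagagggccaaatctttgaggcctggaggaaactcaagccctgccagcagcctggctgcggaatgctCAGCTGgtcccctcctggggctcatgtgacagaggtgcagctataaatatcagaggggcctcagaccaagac
Fbxo40, first start, chr16:36990468-36990717, minus strand: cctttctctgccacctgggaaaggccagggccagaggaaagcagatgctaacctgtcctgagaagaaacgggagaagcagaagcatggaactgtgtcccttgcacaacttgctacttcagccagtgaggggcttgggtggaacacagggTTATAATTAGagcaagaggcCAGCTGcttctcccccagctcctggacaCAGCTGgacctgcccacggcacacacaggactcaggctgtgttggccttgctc
Trim54, chr5:31116362-31116611, plus strand: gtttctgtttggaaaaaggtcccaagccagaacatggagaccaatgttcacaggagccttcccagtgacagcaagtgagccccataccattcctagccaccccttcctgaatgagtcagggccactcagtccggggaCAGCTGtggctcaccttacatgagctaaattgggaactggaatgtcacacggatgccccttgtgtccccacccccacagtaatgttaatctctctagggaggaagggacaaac
Asb2, first start, chr12:103356002-103356251, minus strand: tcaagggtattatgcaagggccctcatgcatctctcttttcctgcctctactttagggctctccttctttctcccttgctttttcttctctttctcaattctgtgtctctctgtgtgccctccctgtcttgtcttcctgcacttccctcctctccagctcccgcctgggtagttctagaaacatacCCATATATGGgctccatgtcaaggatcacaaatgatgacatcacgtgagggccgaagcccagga
Klhl40, chr9:121777357-121777606, plus strand: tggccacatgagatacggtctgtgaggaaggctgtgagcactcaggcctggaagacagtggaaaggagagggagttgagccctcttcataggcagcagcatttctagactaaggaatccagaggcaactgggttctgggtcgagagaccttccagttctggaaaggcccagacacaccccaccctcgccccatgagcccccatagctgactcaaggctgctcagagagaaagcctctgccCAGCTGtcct

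CAGCTG stood 72 bases before the Trim63 start, 81 and 53 bases before the first Fbxo40 start, 89 bases before the second Fbxo40 start, 113 bases before the Trim54 start and 10 bases before the Klhl40 start. The FoxO letters were found only at Trim63 among these 10 promoters, 194 bases before the start. The MEF2 motif lay 101 bases before the first Fbxo40 start, and the CArG box, the letters bound by serum response factor, 64 bases before the first Asb2 start. None of the 4 motifs was in this window at Fbxo30, Foxo1, Foxo3 or the second Asb2 start. The Trim54 distance counts from the RefSeq start at 31116612, which lies before the GENCODE start at 31116712 and whose following bases match no GENCODE transcript. A match of letters is a description and not a measured binding site.

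**Figure D1:**
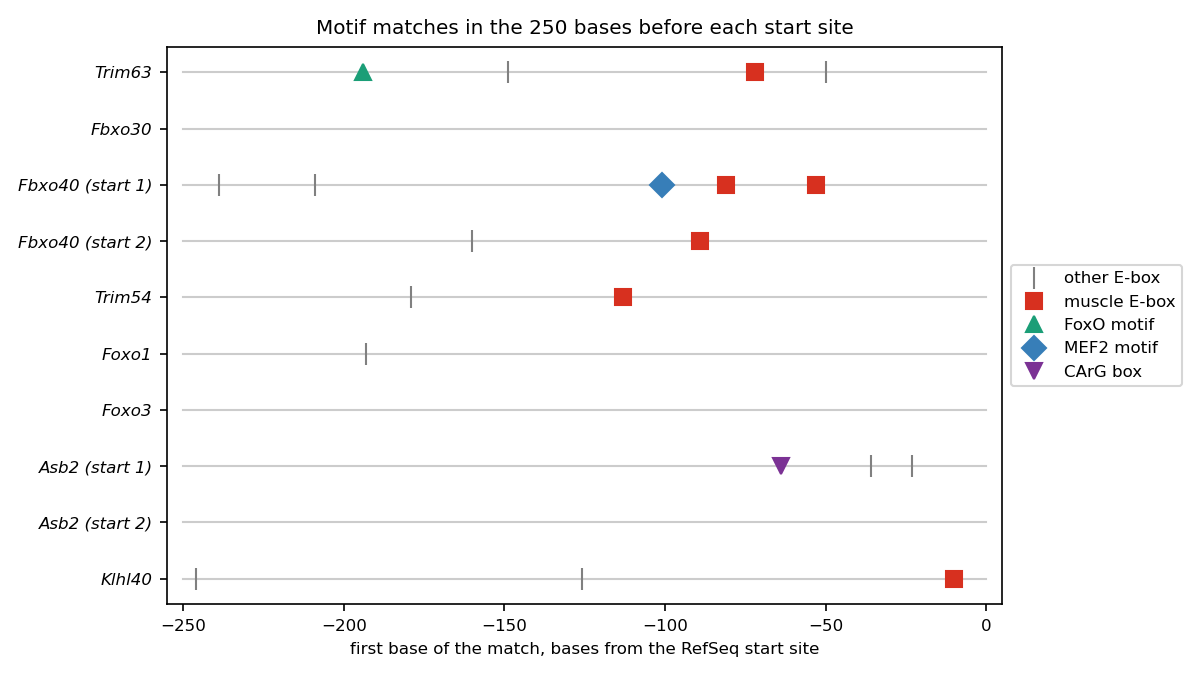
Positions of motif matches in the 250 bases before each RefSeq start site of the 8 members that have an entry, 1 row per start site, with distance from the start in bases on the horizontal axis. CAGCTG falls within 113 bases of the start at Trim63, Fbxo40, Trim54 and Klhl40.

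Over the 10 groups the members fell into a set with wide spans of the group means, called switched here, and a set with narrower spans. Group means spanned 177-fold for Fbxo40, 43.2-fold for Asb2, 37.3-fold for Klhl40, 27.8-fold for Trim63 and 19.5-fold for Trim54. The span was 2.83-fold for Trim55, 2.37-fold for Foxo3, 2.33-fold for Fbxo32, 2.32-fold for Foxo1 and 1.71-fold for Fbxo30. A narrower span is not a lack of change: Trim55 rose by 1.38 on the log2 scale in patterned C2C12 cells at day 4 against day 0. The lowest group mean was at day 0 in all 5 switched genes, and also in Trim55, Foxo1 and Foxo3 of the narrower set. For Fbxo32 the highest mean was that of primary day 0, at 53.3 TPM, and the lowest that of primary day 4, at 22.9 TPM. Foxo1 also had its highest mean at primary day 0, at 20.4 TPM.

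**Figure D2:**
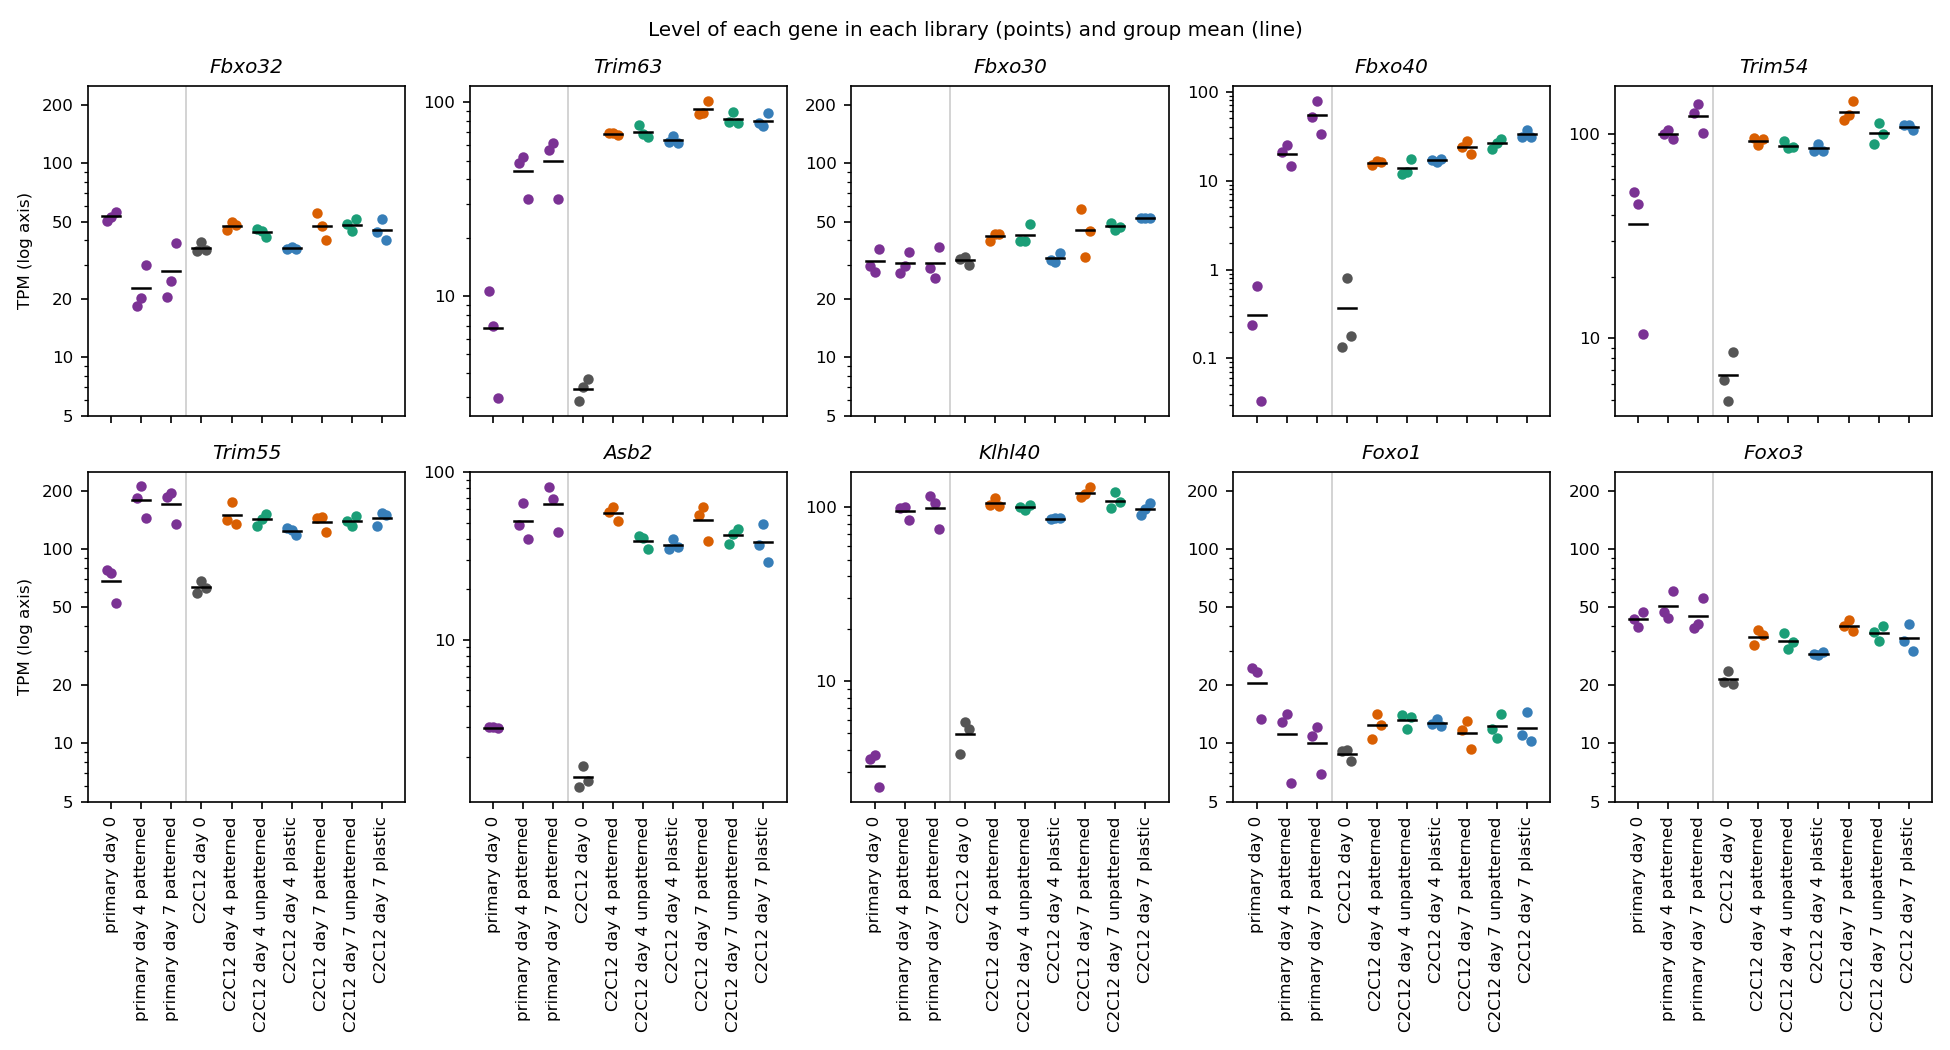
Level of each member in TPM (vertical axis, log scale) in the 10 groups, primary cells left of C2C12 cells. The panels of Fbxo32, Fbxo30, Trim55, Foxo1 and Foxo3 share the same vertical range, and each other panel has its own. Points are libraries and lines are group means. Fbxo40 lies at 0.803 TPM or less in every day 0 library and at 11.8 TPM or more in every later one.

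In C2C12 cells, day 4 against day 0, all 10 members were higher on either gelatin and 9 on plastic (edgeR quasi-likelihood test, adjusted p under 0.05 over 14844 genes). On plastic Fbxo32 was among the 9 and did not keep its direction on the TPM scale. C2C12 day 0 cells were on plastic, so substrate and day change together when gelatin is compared with day 0. Of all genes tested, 60.1% passed on patterned gelatin, 59.7% on the unpatterned gel and 58% on plastic, and those higher made up 30.9%, 30.4% and 30.2%. The median log2 fold change of the members was 2.63 on patterned gelatin, 2.58 on the unpatterned gel and 2.58 on plastic, beside -0.017, -0.026 and 0.004 over all genes tested. All 6 myotube markers rose and all 4 markers of dividing cells fell in the same comparison on patterned gelatin. Of the 3 fibroblast markers tested 2 rose, the sum of the list being 91.2 to 125 TPM in patterned day 4 cells, against 39.2 to 44.9 TPM in day 0 cells, and 2 of the 3 myoblast markers fell. The part of these markers in the members' values was not tested.

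Among the F-box proteins, Fbxo40, a muscle F-box protein known to target IRS1 in insulin signalling, changed most. It had 14.9, 16.6 and 16.4 TPM in patterned day 4 cells, against 0.136, 0.803 and 0.180 TPM in day 0 cells, where it rested on 10, 21 and 12 counts. The groups did not overlap, and the log2 fold change was 6.32 (SE 0.17, edgeR adjusted p = 2.78e-16) on patterned gelatin, 6.15 on the unpatterned gel and 6.44 on plastic. Fbxo32, whose known substrates include MyoD and eIF3f, had 45.2, 49.9 and 48.2 TPM in patterned day 4 cells, against 35.5, 39.1 and 35.6 TPM in day 0 cells. Every patterned library was above every day 0 library, with a log2 fold change of 0.45 (SE 0.07, edgeR adjusted p = 3.39e-05).

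On plastic Fbxo32 gave 36.0, 37.1 and 36.3 TPM at day 4, inside the range of day 0. Its log2 fold change there was 0.20 (SE 0.07, edgeR adjusted p = 0.0275) on normalised counts, and on the log2(TPM + 1) scale it was -0.01 with the median of all genes at -0.15, so that no direction is given for it. The call was also lost without day 4 plastic replicate 1 (0.20, edgeR adjusted p = 0.0587), without day 4 plastic replicate 3 (0.21, edgeR adjusted p = 0.0528) and without day 0 replicate 1 (0.15, edgeR adjusted p = 0.152). Fbxo30, or MUSA1, known for its role in denervation atrophy, had 39.8, 43.4 and 43.1 TPM in patterned day 4 cells, against 32.2, 32.8 and 29.9 TPM in day 0 cells. It rose by 0.45 on the log2 scale (SE 0.14, edgeR adjusted p = 0.00965) and by 0.48 on unpatterned gelatin, and on plastic the value was 0.17 (edgeR adjusted p = 0.312).

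The 3 MuRF genes also rose, by unequal amounts. Trim63 (MuRF1), a RING ligase for thick-filament proteins, had 69.7, 69.0 and 68.1 TPM in patterned day 4 cells, against 2.87, 3.38 and 3.70 TPM in day 0 cells. Trim54 (MuRF3), which associates with microtubules and the Z-disc, had 95.6, 88.2 and 94.4 TPM in patterned day 4 cells, against 6.26, 4.94 and 8.54 TPM in day 0 cells. Trim55 (MuRF2) had 141, 175 and 135 TPM in patterned day 4 cells, against 59.2, 68.4 and 62.9 TPM in day 0 cells. None of the 3 genes had overlapping groups. The log2 fold changes were 4.51 for Trim63 (SE 0.15, edgeR adjusted p = 6.64e-15), 3.87 for Trim54 (SE 0.19, edgeR adjusted p = 1.37e-12) and 1.38 for Trim55 (SE 0.07, edgeR adjusted p = 1.26e-12).

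The share of each gene in the summed TPM of the MuRF family shifted with these changes. Trim63 made up 22.1% ± 1.17 (SD, n = 3) in patterned day 4 cells, against 4.51% ± 0.373 in day 0 cells. Trim55 made up 48.0% ± 4.02 in patterned day 4 cells, against 86.5% ± 2.71 in day 0 cells. Trim54 made up 29.8% ± 2.85 in patterned day 4 cells, against 8.99% ± 2.46 in day 0 cells. In primary cells Trim63 took a smaller share, 13.5% ± 1.59 at day 4, against 5.83% ± 1.56 at day 0. Primary day 0 replicate 3 differed from the other day 0 libraries, with 15.8% of the family in Trim54 where replicates 1 and 2 had 37.1% and 35.6%. These shares are descriptions and were not tested.

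**Figure D3:**
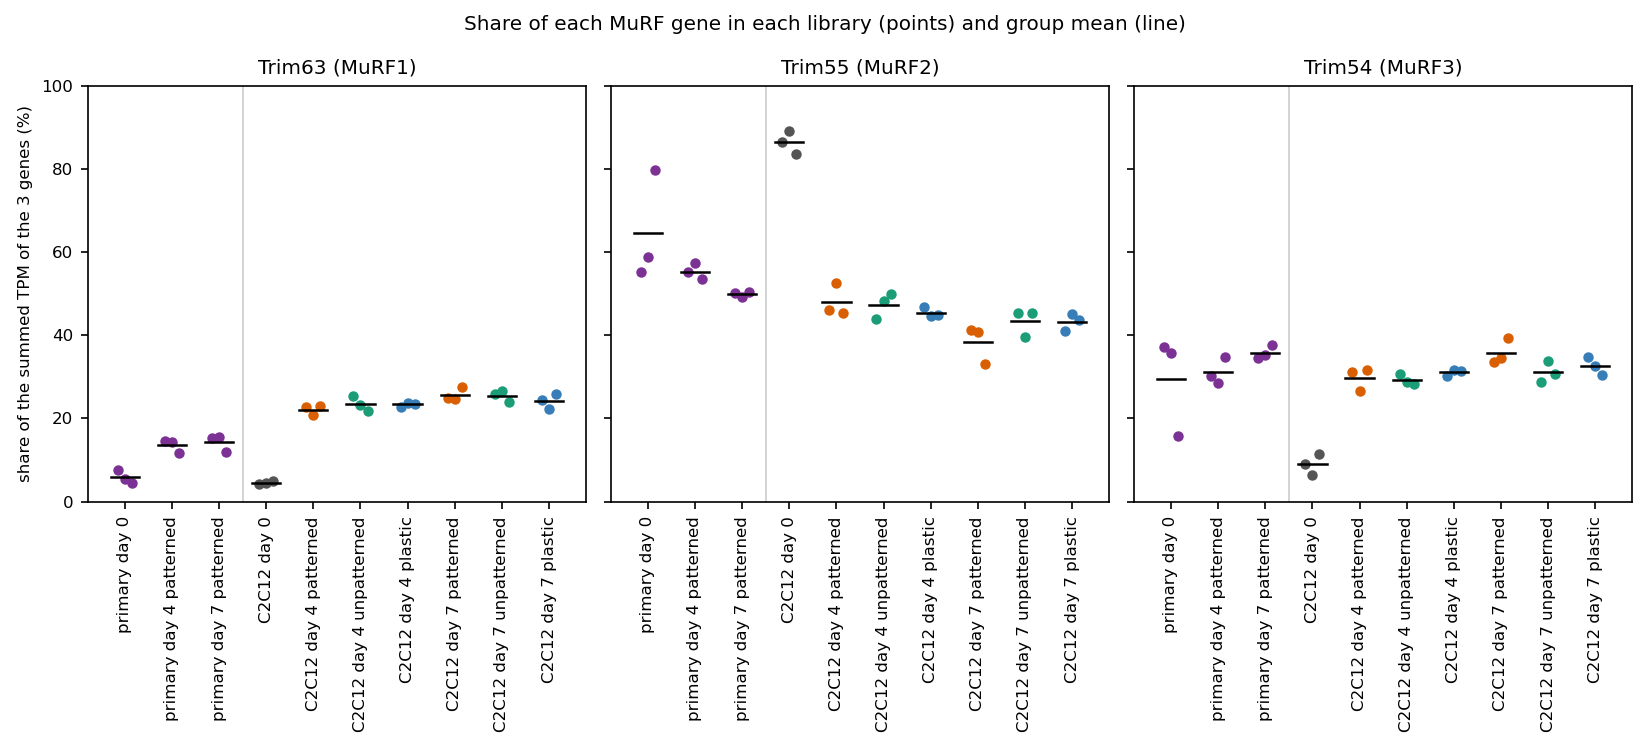
Share of Trim63, Trim55 and Trim54 in their summed TPM (vertical axis, percent) in each group, primary cells left of C2C12 cells. Points are libraries and lines are group means. Trim55 holds 86.5% on average at C2C12 day 0 and 48.0% in patterned day 4 cells.

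Asb2 and Klhl40, the adaptors of Cullin 5 and Cullin 3 ligases, were close to Trim63 in the size of their change. Asb2, which is known to target filamins, had 57.8, 62.2 and 51.0 TPM in patterned day 4 cells, against 1.32, 1.75 and 1.43 TPM in day 0 cells. Klhl40, which stabilises nebulin and leiomodin 3 and is mutated in human nemaline myopathy, had 103.6, 112.6 and 101.4 TPM in patterned day 4 cells, against 3.83, 5.81 and 5.31 TPM in day 0 cells. Neither gene had overlapping groups. The log2 fold change was 5.30 for Asb2 (SE 0.16, edgeR adjusted p = 1.53e-15) and 4.47 for Klhl40 (SE 0.14, edgeR adjusted p = 3.6e-15).

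The FoxO factors rose by less than the MuRF genes. Foxo3 had 31.9, 38.3 and 36.0 TPM in patterned day 4 cells, against 20.7, 23.5 and 20.1 TPM in day 0 cells, and Foxo1 had 10.6, 14.1 and 12.4 TPM, against 9.10, 9.21 and 8.07 TPM. All patterned values were above all day 0 values for both genes. The log2 fold change was 0.87 for Foxo3 (SE 0.09, edgeR adjusted p = 5.17e-08) and 0.56 for Foxo1 (SE 0.10, edgeR adjusted p = 0.000114).

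In primary cells, day 4 against day 0, 7 of the 10 members passed the test (edgeR, adjusted p under 0.05 over 14352 genes). Of all genes tested 42.6% passed, 20.2% higher and 22.4% lower. Fbxo40, Klhl40, Asb2, Trim63, Trim55 and Trim54 rose and Fbxo32 fell. With the replicate number as a block, 9 members passed, and all genes called went up to 8277, against 6116 without it. Leaving out replicate 3 in all primary groups, 9 members and 8209 of 14503 genes passed. In the same comparison 5 of the 6 myotube markers rose and all 4 markers of dividing cells fell. Of the 3 fibroblast markers tested 1 rose (Col1a1, 2.49), the sum of the list being 2.09 to 3.62 TPM at primary day 4, against 0.935 to 1.17 TPM at primary day 0. The part of these markers in the members' values was not tested.

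Fbxo40 had 20.7, 25.1 and 14.7 TPM in primary day 4 cells, against 0.238, 0.655 and 0.0333 TPM in primary day 0 cells, where it rested on 16, 17 and 3 counts (log2 fold change 6.95, SE 0.61, edgeR adjusted p = 6.81e-05). Klhl40 had 99.2, 100.3 and 84.8 TPM in primary day 4 cells, against 3.57, 3.73 and 2.47 TPM in primary day 0 cells (log2 fold change 4.94, SE 0.20, edgeR adjusted p = 7.07e-06). Asb2 had 48.2, 65.3 and 39.7 TPM in primary day 4 cells, against 2.99, 3.00 and 2.95 TPM in primary day 0 cells (log2 fold change 4.10, SE 0.29, edgeR adjusted p = 3.09e-05). No pair of groups overlapped for these genes.

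Of the MuRF genes, Trim63 had 48.8, 52.2 and 31.8 TPM in primary day 4 cells, against 10.6, 7.00 and 2.97 TPM in primary day 0 cells (log2 fold change 2.83, SE 0.41, edgeR adjusted p = 0.000742). Trim55 had 183, 210 and 145 TPM in primary day 4 cells, against 77.7, 75.3 and 52.9 TPM in primary day 0 cells (log2 fold change 1.45, SE 0.19, edgeR adjusted p = 0.000427). Trim54 had 100.2, 104 and 94.3 TPM in primary day 4 cells, against 52.1, 45.6 and 10.5 TPM in primary day 0 cells (log2 fold change 1.57, SE 0.45, edgeR adjusted p = 0.0211). In each of the 3 genes the day 0 library of replicate 3 was the lowest of the 6. The Trim54 call was lost without primary day 4 replicate 2 (1.56, edgeR adjusted p = 0.0505).

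Fbxo32 went the other way. It had 18.3, 20.3 and 30.1 TPM in primary day 4 cells, against 50.6, 52.8 and 56.3 TPM in primary day 0 cells, with no overlap, and fell by 1.12 on the log2 scale (SE 0.30, edgeR adjusted p = 0.0159). The value was -0.95 without primary day 4 replicate 1 (edgeR adjusted p = 0.0581) and -1.01 without primary day 4 replicate 2 (edgeR adjusted p = 0.0615). Foxo1 had 12.8, 14.2 and 6.27 TPM in primary day 4 cells, against 24.4, 23.4 and 13.3 TPM in primary day 0 cells, and its groups overlapped (log2 fold change -0.80, SE 0.31, edgeR adjusted p = 0.0695). With the replicate block it was -0.82 (edgeR adjusted p = 1.48e-04). Foxo3 had 47.1, 44.1 and 60.9 TPM in primary day 4 cells, against 43.8, 39.8 and 47.5 TPM in primary day 0 cells (log2 fold change 0.36, SE 0.21, edgeR adjusted p = 0.203). With the block it was 0.34 (edgeR adjusted p = 0.0106). Fbxo30 had 27.3, 29.7 and 34.8 TPM in primary day 4 cells, against 29.7, 27.6 and 36.2 TPM in primary day 0 cells (log2 fold change 0.05, edgeR adjusted p = 0.857).

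**Figure D4:**
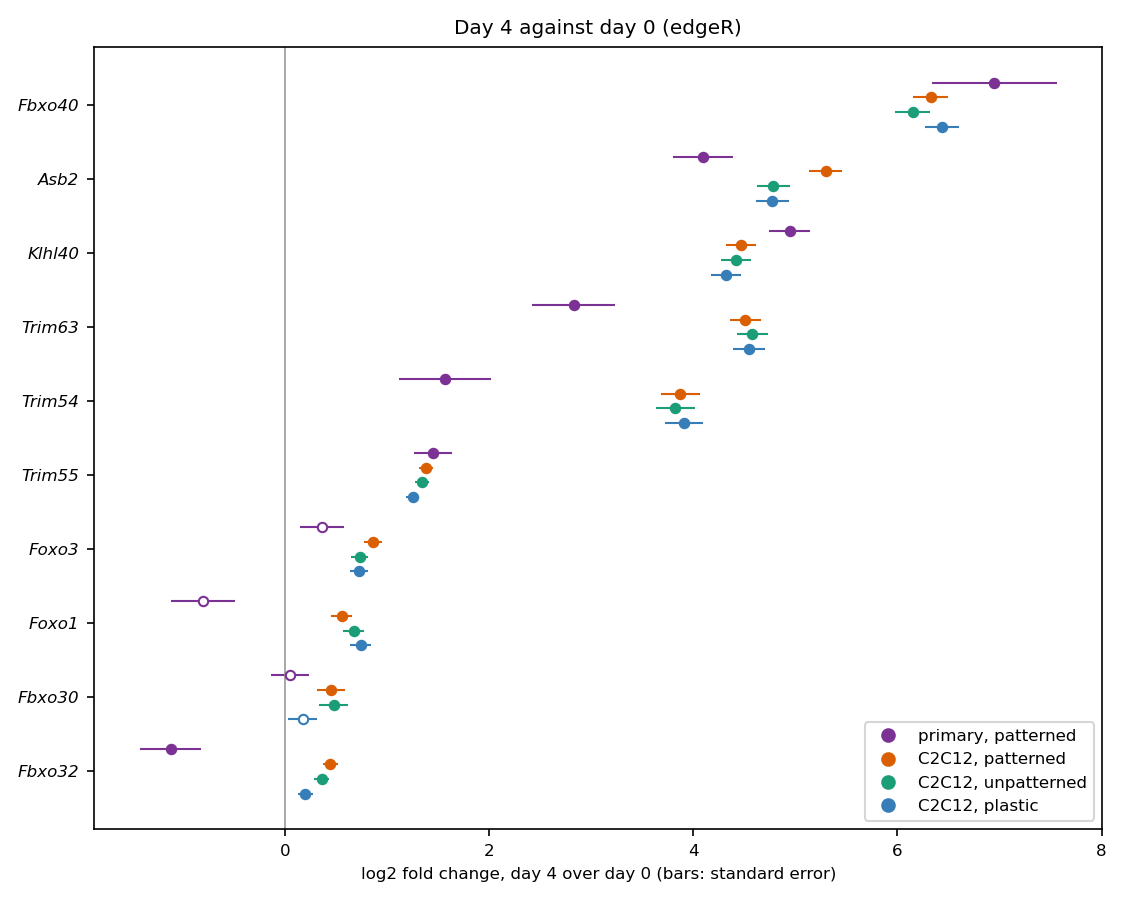
Log2 fold change of each member at day 4 over day 0 (horizontal axis) in primary cells on patterned gelatin and in C2C12 cells on the 3 substrates. Bars are standard errors, filled points have an edgeR adjusted p under 0.05 and open points do not. Fbxo32 lies below 0 in primary cells, at -1.12, and at 0.45 in C2C12 cells on patterned gelatin.

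The day 4 response on patterned gelatin was then compared between the cell types, as the primary log2 fold change minus the C2C12 one (edgeR, over 15447 genes). The difference passed the test for 5 members, all of them with a lower change in primary cells, where 20.5% of all genes passed in either direction and 10.6% in the lower direction. It was -1.52 for Fbxo32 (SE 0.26, edgeR adjusted p = 1.40e-04), -1.62 for Trim63 (SE 0.37, edgeR adjusted p = 0.00240) and -2.24 for Trim54 (SE 0.43, edgeR adjusted p = 4.88e-04). It was -1.30 for Foxo1 (SE 0.29, edgeR adjusted p = 0.00221) and -1.15 for Asb2 (SE 0.30, edgeR adjusted p = 0.00761). A lower change is not a lower level. At day 0 all 5 were higher in primary cells, and at day 4 only Fbxo32 of the 5 differed in level in the main edgeR fit. There the primary over C2C12 value was -0.48 for Trim63, 0.28 for Trim54, -0.02 for Foxo1 and -0.02 for Asb2. With the replicate block, where 4528 of 15447 genes passed, the difference also passed for Foxo3 (-0.47, edgeR adjusted p = 0.00577) and Klhl40 (0.53, edgeR adjusted p = 0.0313).

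At day 0, where primary and C2C12 myoblasts were compared directly, 8 of the 10 members differed, with 57.5% of all genes passing (edgeR). Trim54 was 2.52 higher on the log2 scale in primary cells (SE 0.32, edgeR adjusted p = 4.25e-07), with 52.1, 45.6 and 10.5 TPM in primary cells, against 6.26, 4.94 and 8.54 TPM in C2C12 cells. Foxo3 had 43.8, 39.8 and 47.5 TPM in primary cells, against 20.7, 23.5 and 20.1 TPM in C2C12 cells (log2 fold change 1.29, edgeR adjusted p = 7.48e-08). Foxo1, with a log2 fold change of 1.28, Trim63 with 1.14, Asb2 with 1.13, Fbxo32 with 0.63 and Trim55 with 0.36 were also higher in primary cells (edgeR adjusted p of at most 0.0120). Klhl40 was lower in primary cells (log2 fold change -0.52, edgeR adjusted p = 0.00760). The Klhl40 call was lost without C2C12 day 0 replicate 3 (-0.41) or primary day 0 replicate 3 (-0.36). The Trim55 call was lost on the log2(TPM + 1) scale (0.09) and without C2C12 day 0 replicate 1 (0.31), primary day 0 replicate 1 (0.31) or primary day 0 replicate 2 (0.28).

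At day 4 on patterned gelatin 3 members differed between primary and C2C12 cells, against 50.6% of all genes (edgeR). Fbxo32 was lower in primary cells, with 18.3, 20.3 and 30.1 TPM, against 45.2, 49.9 and 48.2 TPM in C2C12 cells (log2 fold change -0.89, SE 0.18, edgeR adjusted p = 2.84e-04). Foxo3 was higher in primary cells (0.83, edgeR adjusted p = 4.82e-05), and so was Trim55 (0.48, edgeR adjusted p = 0.00149), which lost the call on the log2(TPM + 1) scale (0.25). With the replicate block 5 members and 8987 of 15447 genes differed, with Trim63 at -0.49 (edgeR adjusted p = 0.00715) and Fbxo30 at -0.36 (edgeR adjusted p = 0.00814). Asb2 and Klhl40 had fold changes near 0, at -0.02 and 0.00 (SE 0.19 and 0.14).

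At day 7, 5 members differed between primary and C2C12 cells, against 51.5% of all genes (edgeR). Fbxo40 had 52.1, 78.7 and 33.6 TPM in primary cells, against 23.8, 28.0 and 20.1 TPM in C2C12 cells on patterned gelatin (log2 fold change 1.10, SE 0.26, edgeR adjusted p = 0.00102). Fbxo32 had 20.5, 24.6 and 38.8 TPM in primary cells, against 55.2, 47.8 and 40.1 TPM in C2C12 cells (log2 fold change -0.61, SE 0.18, edgeR adjusted p = 0.00717). Neither gene had overlapping groups, though Fbxo32 lost its call without primary day 7 replicate 1 (-0.37) or replicate 2 (-0.45). Trim63 had 56.4, 61.7 and 31.8 TPM in primary cells, against 86.9, 88.1 and 101.6 TPM in C2C12 cells (log2 fold change -0.78, SE 0.24, edgeR adjusted p = 0.00837). Trim63 lost its call without C2C12 day 7 patterned replicate 3 (-0.62) or primary day 7 replicate 3 (-0.51). Trim55 (0.40, edgeR adjusted p = 0.00628) and Foxo3 (0.48, edgeR adjusted p = 0.00847) were higher in primary cells, and both lost the call on the log2(TPM + 1) scale (0.30 and 0.15). With the block, where 9096 of 15447 genes passed, Fbxo30 (-0.27, edgeR adjusted p = 0.0435) and Asb2 (0.42, edgeR adjusted p = 0.0352) passed as well.

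Day 7 was then compared with day 4 on each substrate. Of the 10, 3 passed on patterned gelatin, 1 on the unpatterned gel and 3 on plastic, beside 20.3%, 2.92% and 14.8% of all genes (edgeR). Fbxo40 passed on each substrate, though on log2(TPM + 0.1) the call was lost on patterned gelatin (0.57, limma adjusted p = 0.229) and on the unpatterned gel (0.93, limma adjusted p = 0.206). It had 23.8, 28.0 and 20.1 TPM in patterned day 7 cells, against 14.9, 16.6 and 16.4 TPM in patterned day 4 cells (log2 fold change 0.54, SE 0.11, edgeR adjusted p = 0.00420). The log2 fold change was 0.93 on unpatterned gelatin (SE 0.11, edgeR adjusted p = 1.05e-04) and 0.71 on plastic (SE 0.11, edgeR adjusted p = 4.18e-04). In primary cells the value was 1.34 (SE 0.44, edgeR adjusted p = 0.904), and 1.36 without replicate 3 in all primary groups (edgeR adjusted p = 0.0217). No gene passed between the primary days in the main edgeR fit, which does not use the replicate number. In that fit 666 genes with 1 member stood under 0.05 before adjustment. With DESeq2, 58 genes and 0 members passed.

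Trim63 and Trim54 rose further on patterned gelatin. Trim63 had 86.9, 88.1 and 101.6 TPM in patterned day 7 cells, against 69.7, 69.0 and 68.1 TPM in patterned day 4 cells (log2 fold change 0.46, SE 0.12, edgeR adjusted p = 0.0150). Trim54 had 117, 124 and 145 TPM in patterned day 7 cells, against 95.6, 88.2 and 94.4 TPM in patterned day 4 cells (log2 fold change 0.53, SE 0.16, edgeR adjusted p = 0.0271). Neither pair overlapped. Both calls were lost on leaving out 1 of several libraries: without day 7 patterned replicate 3 Trim63 was 0.30 and Trim54 0.34, without day 4 patterned replicate 2 they were 0.41 and 0.44, without day 4 patterned replicate 3 they were 0.45 and 0.53, and without day 4 patterned replicate 1 Trim54 was 0.58, all with an edgeR adjusted p over 0.05. On plastic Trim63 had 78.1, 75.1 and 88.1 TPM at day 7, against 62.5, 66.7 and 61.9 TPM at day 4, with no overlap, and was not called in edgeR (0.13, adjusted p = 0.502) but was called on log2(TPM + 1) (0.33, limma adjusted p = 0.0144), a scale on which the median of all genes was 0.16. Trim63 on unpatterned gelatin and Trim54 on plastic also had no overlap between the days, with edgeR adjusted p = 0.486 and 0.56. The difference between days 7 and 4 of the patterned effect over plastic, tested directly, was 0.33 for Trim63 (edgeR adjusted p = 0.178) and 0.38 for Trim54 (edgeR adjusted p = 0.241). That test passed for 0 members and 11.7% of all genes in edgeR, with 1 member at an unadjusted p under 0.05. That member was Fbxo30, with a value in the other direction (-0.50, SE 0.20, edgeR adjusted p = 0.0948). Fbxo30 passed without day 7 patterned replicate 1 (-0.69, edgeR adjusted p = 0.0133). It also passed on log2(TPM + 1) (-0.60, limma adjusted p = 0.0423), where the median of all genes was -0.16, and on log2(TPM + 0.1) (-0.61, limma adjusted p = 0.0426). The same difference for unpatterned gelatin passed for 0 members and 0 genes in edgeR, with 0 members and 1532 genes at an unadjusted p under 0.05 and 18 genes in DESeq2.

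On plastic, Fbxo30 had 52.1, 52.1 and 52.0 TPM at day 7, against 31.7, 31.0 and 34.6 TPM at day 4 (log2 fold change 0.43, SE 0.14, edgeR adjusted p = 0.0469). Foxo1 had 11.02, 14.5 and 10.3 TPM at day 7, against 12.6, 13.3 and 12.2 TPM at day 4, with overlapping groups (log2 fold change -0.33, SE 0.10, edgeR adjusted p = 0.0386). Leaving out any one of day 4 plastic replicates 1, 2 or 3 or day 7 plastic replicates 1 or 3 ended both calls, with values of 0.38 to 0.49 for Fbxo30 and -0.34 to -0.24 for Foxo1. On log2(TPM + 1) Foxo1 was -0.10 (limma adjusted p = 0.667).

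The study asked whether patterned gelatin changes the maturation of C2C12 myotubes. Against plastic at day 4, Asb2 was the 1 member that passed, where 3.55% of all genes did (edgeR). It had 57.8, 62.2 and 51.0 TPM in patterned cells, against 34.9, 39.9 and 35.5 TPM in plastic cells, with no overlap (log2 fold change 0.52, SE 0.12, edgeR adjusted p = 0.0238). The size held when any single library was left out (0.49 to 0.63 over its alternatives), but the call was lost without day 4 plastic replicate 1, 2 or 3 or day 4 patterned replicate 1 or 2 (0.50, 0.55, 0.54, 0.53 and 0.49). Against unpatterned gelatin at day 4, Asb2 was 41.6, 40.4 and 35.0 TPM there and above it in all 3 patterned libraries (log2 fold change 0.52, SE 0.12, edgeR adjusted p = 0.135). It passed in DESeq2 (0.51, adjusted p = 0.0174) and in a fit of the 2 groups alone (0.52, edgeR adjusted p = 0.0203).

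At day 7 against plastic, 2 members passed, where 23.8% of all genes did (edgeR). Asb2 had 55.3, 61.6 and 38.9 TPM in patterned cells, against 37.0, 49.0 and 29.1 TPM in plastic cells (log2 fold change 0.50, SE 0.12, edgeR adjusted p = 0.0104), and the groups overlapped. Klhl40 had 114, 119 and 131 TPM in patterned cells, against 90.02, 97.3 and 105.3 TPM in plastic cells, with no overlap (log2 fold change 0.41, SE 0.12, edgeR adjusted p = 0.0236). Klhl40 lost its call without day 7 plastic replicate 1 (0.36), day 7 plastic replicate 2 (0.34) or day 7 patterned replicate 3 (0.26). On the log2(TPM + 1) scale Asb2 was 0.43, with limma adjusted p = 0.0749. In the same comparison 3 of the 4 dividing cell markers fell, and their part in these values was not tested.

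No member passed in the other substrate comparisons. Patterned against unpatterned gelatin gave 0 members at day 4, where 0.00674% of all genes passed, and 0 at day 7, where 0.546% did (edgeR). At an unadjusted p under 0.05 there was 1 member and 1281 genes at day 4, and 2 members and 2943 genes at day 7, and DESeq2 called 1 member at day 4, Asb2. The 2 members at day 7 were Trim54 (0.40, edgeR adjusted p = 0.191), whose groups did not overlap, and Asb2 (0.30, edgeR adjusted p = 0.201), whose groups did. Unpatterned gelatin against plastic gave 0 members at day 4, with 7.89% of all genes passing and 3 members at an unadjusted p under 0.05, and 0 at day 7, with 3.46% of all genes and 1 member. Foxo1 and Foxo3 stayed within 0.21 of 0 on the log2 scale in all 6 substrate comparisons in edgeR (SE 0.09 to 0.10), except that Foxo3 for patterned over plastic at day 7 was 0.27 (edgeR adjusted p = 0.0453) without day 7 plastic replicate 2.

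At day 4 the other switched genes gave these values on the 3 substrates. Trim63 had 69.7, 69.0 and 68.1 TPM in patterned cells, 76.5, 68.6 and 66.2 TPM in unpatterned cells and 62.5, 66.7 and 61.9 TPM in plastic cells. Fbxo40 had 14.9, 16.6 and 16.4 TPM in patterned cells, 11.8, 12.5 and 17.4 TPM in unpatterned cells and 17.1, 16.2 and 17.3 TPM in plastic cells. Trim54 had 95.6, 88.2 and 94.4 TPM in patterned cells, 92.1, 84.9 and 86.1 TPM in unpatterned cells and 82.8, 89.0 and 82.9 TPM in plastic cells. Patterned and unpatterned cells overlapped in all 3 genes, and patterned cells lay above plastic cells in TPM without overlap for Trim63, where the edgeR log2 fold change was -0.04 (adjusted p = 0.917). Klhl40 had 103.6, 112.6 and 101.4 TPM in patterned cells, 100.2, 96.9 and 103.5 TPM in unpatterned cells and 85.1, 86.5 and 86.2 TPM in plastic cells. Both gels lay above plastic without overlap for Klhl40, and neither difference passed (0.15 for patterned and 0.10 for unpatterned over plastic, edgeR adjusted p = 0.567 and 0.691).

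Foxo3 was 31.9, 38.3 and 36.0 TPM in patterned day 4 cells, 37.0, 30.5 and 33.1 TPM in unpatterned day 4 cells and 28.7, 28.6 and 29.5 TPM in plastic day 4 cells. Its log2 fold change of patterned over plastic, 0.14 (SE 0.09), did not pass (edgeR adjusted p = 0.424), although no patterned library overlapped with plastic. Fbxo32 likewise had no overlap between patterned and plastic cells at day 4 (log2 fold change 0.25, SE 0.07, edgeR adjusted p = 0.0703). Fbxo40 at day 7 was 23.8, 28.0 and 20.1 TPM in patterned cells and 31.3, 37.4 and 31.2 TPM in plastic cells, also without overlap (log2 fold change -0.28, SE 0.11, edgeR adjusted p = 0.0686). Fbxo32 passed in 4 alternatives, DESeq2 (0.26, adjusted p = 0.0101), log2(TPM + 1) (0.38, limma adjusted p = 0.0403), log2(TPM + 0.1) (0.39, limma adjusted p = 0.0401) and a fit of the 2 groups alone (0.25, edgeR adjusted p = 0.00944). Fbxo40 passed without day 7 plastic replicate 3 (-0.42, edgeR adjusted p = 0.0117).

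**Figure D5:**
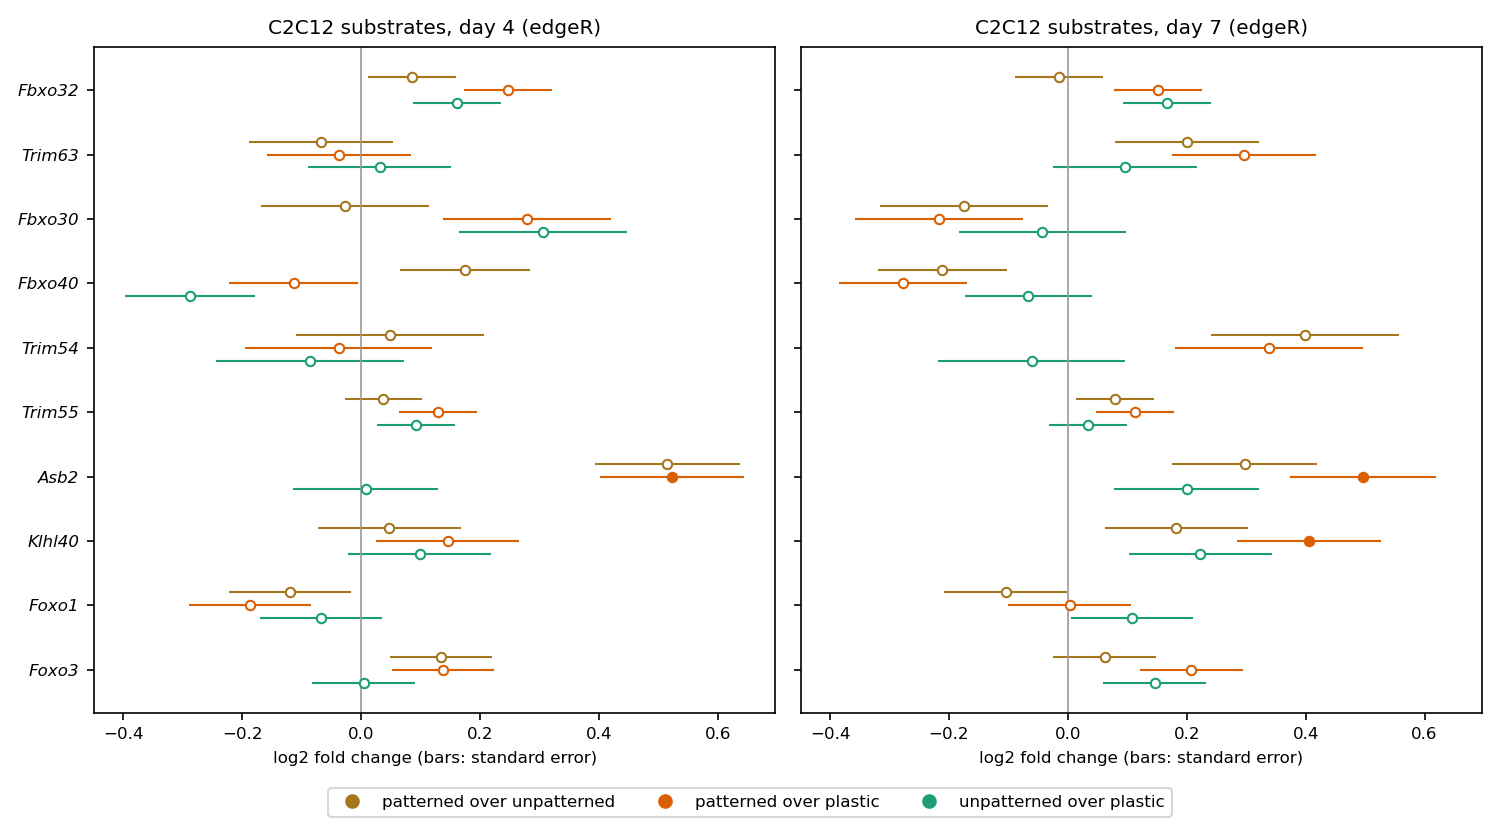
Log2 fold change of each member between C2C12 substrates (horizontal axis) at day 4 and day 7, for patterned over unpatterned, patterned over plastic and unpatterned over plastic. Bars are standard errors, filled points have an edgeR adjusted p under 0.05. Filled points are Asb2 at days 4 and 7 and Klhl40 at day 7, all for patterned over plastic.

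Transcripts of the members were described by Kallisto's split of reads, which carries no error in the files. Fbxo32, Trim54, Foxo1 and Klhl40 each had 1 transcript with a share of 100%. The 1886-base coding transcript of Trim63 took 92.6% to 95.5% of Trim63 at days 4 and 7 and 83.1% at C2C12 day 0. The 2690-base coding transcript of Asb2 took 74.4% of it in patterned day 4 cells, against 69.8% in plastic day 4 cells, and 74.1% in primary day 4 cells. The 2595-base coding transcript of Trim55 took 84.9% of it in patterned day 7 cells, against 77.9% in plastic day 7 cells, the rest being a short transcript of 506 bases without a coding sequence in the annotation.

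Across the 30 libraries the members most like each other were Asb2 and Klhl40, with a Pearson r of 0.97 on log2(TPM + 1), and Trim63 and Klhl40, with 0.962. Fbxo32 had r = -0.037 with Trim63 and 0.592 with Fbxo30. Among 13118 other genes with a mean of at least 1 TPM, the most like Trim63 was Tnni1, the slow troponin I (0.990), the most like Asb2 was Camk2a (0.994), and the most like Klhl40 was Itgb1bp2 (0.991). Pink1, the mitophagy kinase, was most like Fbxo40 (0.985), Arpp21 most like Trim54 (0.982) and Klhl31 most like Trim55 (0.980). The best matches of the remaining members had lower values, with Afg3l2 most like Foxo3 (0.935), Abhd4 most like Fbxo32 (0.898), Retreg1 most like Fbxo30 (0.879) and Pxn most like Foxo1 (0.861). These correlations share the day and cell type structure of the libraries and carry no test.

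Around the members, 6 lists of related genes were counted. Among all genes tested at day 4 against day 0, 20.2% were higher in primary cells and 30.9% in C2C12 cells on patterned gelatin, and the list counts are to be read against these shares. Of 20 other muscle ligases, 12 rose and 3 fell at day 4 in C2C12 cells on patterned gelatin (edgeR, median 0.57 against -0.02 for all genes). Trim72, the membrane repair ligase, rose by 5.77 on the log2 scale, Klhl41 by 4.88 and Asb15 by 5.63. In primary cells 8 rose and 3 fell (median 0.32), with Asb15 at 6.43 and Trim72 at 4.33. Of 13 components of cullin-RING ligases, 8 rose and 1 fell in C2C12 cells (median 0.24) and 4 rose and 0 fell in primary cells (median 0.21). Cul1, the scaffold of F-box ligases, rose by 0.81 in C2C12 cells and by 0.51 in primary cells.

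Of 31 proteasome subunits, 20 rose and 0 fell at day 4 on patterned gelatin in C2C12 cells (edgeR, median 0.38) and 11 rose and 2 fell in primary cells (median 0.20), with Psmc3 at 1.24 and 1.12. In patterned C2C12 cells 21 rose and 0 fell further between days 4 and 7 (median 0.37), where 20.3% of all genes passed in either direction. Of 15 known substrates and partners of the ligases, 10 rose and 3 fell in C2C12 cells (median 4.64) and 10 rose and 3 fell in primary cells (median 2.27). Mybpc2, fast myosin-binding protein C, rose by 7.66 in C2C12 cells, and Myh4, fast myosin heavy chain, by 8.47 in primary cells. At day 7 on patterned gelatin against plastic, where 23.8% of all genes passed in either direction, Eif3f was 0.50 and Ttn -1.04. The day 7 patterned libraries stood apart in mitochondrial share and total, and the part of this in these values was not tested.

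Of 22 FoxO target genes, 11 rose and 6 fell at day 4 on patterned gelatin in C2C12 cells (edgeR, median 0.24), and 9 rose and 3 fell in primary cells (median 0.28). Bcl6, a transcriptional repressor, rose by 1.97 in C2C12 cells and by 1.33 in primary cells, and Bnip3, a mitophagy receptor, rose by 1.24 in C2C12 cells. Pdk4, a kinase that inhibits pyruvate dehydrogenase and a common FoxO target, was -0.51 in C2C12 cells and 2.01 in primary cells, and the difference of 2.56 passed the test (SE 0.32, edgeR adjusted p = 3.29e-06). Of 14 regulators of FoxO, 9 rose and 2 fell in C2C12 cells (median 0.41) and 7 rose and 3 fell in primary cells (median 0.57). Akt2, a kinase that keeps FoxO out of the nucleus, rose by 1.57 in C2C12 cells, and its difference between primary and C2C12 cells was -0.93 (SE 0.15, edgeR adjusted p = 5.2e-05).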

How the data were processed

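The authors deposited, per library, Kallisto estimated counts, TPM and effective lengths for 88198 transcripts (paired-end reads, build mm10; Kallisto's version, and the transcript set: not given in the sources used here). Total RNA from 3 separate cultures per condition was sequenced, and strand is not stated. Transcripts were summed to 30205 genes through GENCODE M21 (86031 matched, and the 2167 unmatched held 0.723% to 0.893% of counts). Estimated counts, as deposited, were rounded and tested with edgeR 4.0.16 in R 4.3.3 (quasi-likelihood F test, TMM, filterByExpr, Benjamini-Hochberg over all genes, threshold 0.05) in 1 fit per cell type, and over all 30 libraries for comparisons between cell types, 20 comparisons in all. The deposited TPM served for levels and, on log2(TPM + 1) and log2(TPM + 0.1), for limma 3.58.1. The other alternatives were DESeq2 1.42.0, no filter, the replicate block, only the groups compared, and leaving out each library. Leaving out primary replicate 3 was chosen after seeing the data. Replicate numbers paired the primary libraries (9 pairs, correlation of deviations 0.245 to 0.845). The edgeR test was also run on simulated counts with the same spread for all genes and no pairing of replicates. That run cannot show how the test behaves with the spread and pairing of the real libraries. The members and lists were chosen with earlier results of these data known. All 10 members were tested in each comparison, and not every member is named in each. Up to 4 genes of smallest adjusted p were taken from each list. Of the 3 genes most like each member in correlation, the first is given. Python 3.11.15, pandas 2.3.3 and numpy 2.4.6 were used.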

Additional observations from a re-analysis of the deposited data

Results flagged for a closer look

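The response to day 4 on patterned gelatin, against day 0, differed between primary and C2C12 cells for 5 members in a test of the difference itself (edgeR, 3 libraries per group). The difference, primary minus C2C12 on the log2 scale, was -1.52 for Fbxo32, -1.62 for Trim63, -2.24 for Trim54, -1.30 for Foxo1 and -1.15 for Asb2. All 5 kept their call under the 19 alternatives run for each, with ranges of -1.81 to -1.33 for Fbxo32, -2.01 to -1.22 for Trim63, -2.72 to -1.93 for Trim54, -1.55 to -1.03 for Foxo1 and -1.32 to -0.85 for Asb2. Without replicate 3 in every primary group they were -1.74 for Fbxo32, -1.81 for Trim63, -2.69 for Trim54, -1.24 for Foxo1 and -0.92 for Asb2. All 5 genes were higher in primary cells at day 0, and at day 4 only Fbxo32 of them differed in level in the main edgeR fit.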

How the results depend on the processing

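Of 200 member values (10 members, 20 comparisons), 67 were called, and 48 of these kept their call in every alternative run, while 19 lost it in at least 1. Fbxo32 on plastic at day 4 against day 0 was -0.0093 on log2(TPM + 1) and -0.0095 on log2(TPM + 0.1), against 0.20 in edgeR. Of 133 values that were not called, 56 changed sign somewhere, all of them between -0.35 and 0.29. Leaving out 1 library at a time, the members called at day 4 against day 0 ran from 8 to 9 on plastic, 10 to 10 on unpatterned and patterned gelatin and 5 to 8 in primary cells. For day 7 against day 4 they ran from 1 to 3 on plastic, 1 to 1 on unpatterned gelatin, 1 to 3 on patterned gelatin and 0 to 0 in primary cells. Patterned against plastic gave 0 to 1 at day 4 and 1 to 4 at day 7, the other substrate comparisons 0 to 0, and the change of the patterned effect between days 0 to 1. Primary against C2C12 gave 7 to 8 at day 0, 3 to 5 at day 4 and 4 to 7 at day 7, and the difference of the responses 5 to 6.

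Fitting just the groups of each comparison, 1 member was called for patterned day 7 against day 4, 1 for patterned against unpatterned at day 4, 3 for patterned against plastic at day 4, 0 at day 7, 3 for unpatterned against plastic at day 4, and for primary against C2C12 5 at day 4 and 2 at day 7. DESeq2 called 1 for patterned against unpatterned and 2 for patterned against plastic at day 4. On log2(TPM + 1) patterned against plastic gave 2 at day 4 and 1 at day 7, and on log2(TPM + 0.1) 2 and 0, with 0 for unpatterned day 7 against day 4, and both gave 1 for the change of the patterned effect between days. Primary against C2C12 at day 4 gave 5 with the replicate block and 5 without primary replicate 3, which also gave 1 for primary day 7 against day 4. The block ended no call. C2C12 numbers did not pair the libraries (63 pairs, correlation of deviations -0.352 to 0.423, 7 of 21 closest to their own number), and with the block 12 genes were called for patterned against unpatterned at day 4 and 145 at day 7, against 1 and 81 without it.

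Counts over all genes moved more. At day 4 patterned against unpatterned called 1 gene, 148 in DESeq2 and 71 with only the groups compared, and at day 7 81, 482 and 0, with 30 on log2(TPM + 0.1). Patterned against plastic called 527 genes at day 4, 1006 in DESeq2, 2413 with only the groups compared, 860 on log2(TPM + 1) and 343 with no filter, and 3537 at day 7, 21 with only the groups compared. Unpatterned against plastic called 1171 at day 4, 1803 in DESeq2 and 3223 with only the groups compared, and at day 7 514, 970 and 70, with 205 and 173 on the TPM scales. Day 7 against day 4 called 3016 on patterned gelatin, 224 with only the groups compared, and 434 on unpatterned gelatin, 722 in DESeq2, 239 and 196 on the TPM scales. Primary against C2C12 at day 7 called 7948, 4676 with only the groups compared, primary day 7 against day 4 0, 58 in DESeq2 and 124 without replicate 3, and the change of the patterned effect 1744, 2717 in DESeq2 and 193 with only the groups compared.

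The TPM scale moved the median of all genes, to at most 0.161 (plastic day 7 against day 4) and at least -0.159 (change of the patterned effect), and so the share of called genes that were higher: 34.0% against 52.1% in edgeR for plastic day 4 against day 0, 92.2% against 43.6% for plastic day 7 against day 4, 74.1% against 55.3% for unpatterned day 7 against day 4, 94.9% against 59.0% for patterned against plastic at day 4, 35.0% against 54.3% at day 7, 93.9% against 51.0% for unpatterned against plastic at day 4, 56.1% against 71.8% at day 7, 33.7% against 50.7% for primary against C2C12 at day 4, 36.8% against 48.7% at day 7, and 7.2% against 53.2% for the change of the patterned effect. The causes were not tested.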

Other observations

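Glucocorticoids drive muscle wasting in part through these ligases, so a list of 9 glucocorticoid response genes was counted, of which 8 could be tested. At day 7 on patterned gelatin against plastic, 5 of 8 were higher and 0 lower (edgeR, median 0.40 against 0.01 for all genes, of which 23.8% passed). On unpatterned gelatin against plastic 2 were higher (median 0.36), and patterned against unpatterned gave 0 of 8 (median -0.01), with sums over the 9 genes of 593 to 709 TPM in patterned cells, 647 to 755 TPM in unpatterned cells and 339 to 481 TPM in plastic cells. Mt2, a metallothionein, was 1.40 higher on the log2 scale (SE 0.27, edgeR adjusted p = 0.00298), and Fkbp5, a chaperone that is a common marker of glucocorticoid receptor activity, was 0.40 higher (SE 0.12, edgeR adjusted p = 0.0221). Neither Klf15 (0.56, edgeR adjusted p = 0.357) nor Tsc22d3 (-0.16, edgeR adjusted p = 0.323), both direct receptor targets and named here after their values were seen, passed. At day 4 on patterned gelatin against day 0, 4 rose and 3 fell. The sums over the 9 genes at day 4 were 723 to 749 TPM in patterned cells, 705 to 851 TPM in unpatterned cells and 426 to 466 TPM in plastic cells. C2C12 day 0 cells, also on plastic, had 783 to 941 TPM. In primary cells at day 4, Mt2 rose by 2.70 and Sgk1 by 1.54, and Fkbp5 fell by 1.13.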
